A study of Mus musculus with 2 samples.

Results

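Expression of 10 genes of the ATF4 stress pathway was measured in total RNA of regulatory T (Treg) cells, which restrain immune responses, on Agilent mouse arrays read in 1 colour. They are Atf4, Ddit3, Atf3, Atf5, Cebpb, Trib3, Ppp1r15a, Chac1, Ddit4 and Sesn2, taken as a set of integrated stress response transcription factors and their direct feedback targets. Each was found through the gene name that the scanner files give for its probe. All 10 were on the array, with 11 probes, and the scanner software called all 10 well above background on each of the arrays, as it did 23493 of the 34960 gene names present. Such names are called measured below. One array came from Treg cells of 5-week-old Nr4a-TKO mice and 1 from Treg cells of 5-week-old wild-type mice, each sorted and lysed directly. The labels give only the name Nr4a-TKO. They do not say which part of which of the 3 Nr4a genes was altered, how many mice stood behind a sample, their sex or the sorting markers. The 10 genes were chosen with their values on these arrays known, so their differences are a description, and with 1 array per genotype no difference has a replicate check or a p-value.

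The integrated stress response starts when a kinase phosphorylates the translation initiation factor eIF2 during amino acid shortage, unfolded protein in the endoplasmic reticulum, viral RNA or haem shortage. General translation then falls while the messenger RNA of ATF4, a basic leucine zipper transcription factor, is translated more. ATF4 acts with related factors such as C/EBP proteins on genes of amino acid supply and redox balance, and also on genes that limit the response: TRIB3 restrains ATF4, and the GADD34 protein encoded by Ppp1r15a brings a phosphatase back to eIF2. In T cells the pathway is known for its part in the response to amino acid shortage.

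In the array labelled Nr4a-TKO 8 of the 10 genes exceeded the wild-type array by 2-fold or more, 0 fell short of it by that much and 2 lay between. At the same size 3.15% of all 23493 gene names were higher and 3.06% lower, so that 50.7% of the names past 2-fold were higher. That share was 29.3% with spike-in controls and 39.4% with housekeeping genes as the centre. At 1.5-fold 9 of the 10 were higher and 0 lower, beside 8.36% and 7.36% of all names, and at 3-fold 4 were higher and 0 lower, beside 1.23% and 1.2%. All 10 were higher by any amount, as were 59.6% of all names, although Ppp1r15a turned with spike-in controls as the centre. Their median log2 difference, Nr4a-TKO minus wild-type, was 1.56 (2.96-fold), against 0.08 over all names, whose differences had an SD of 0.56. Chac1, which encodes an enzyme that degrades glutathione, differed most at 13.6-fold, and Ppp1r15a differed least at 1.16-fold. Chac1 ranked 14 among all names from the highest difference, and 9 of the 10 genes lay above the 95th percentile of all differences. These counts rest on the values by which the genes were chosen, and nothing is read from them against the background.

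**Figure D1:**
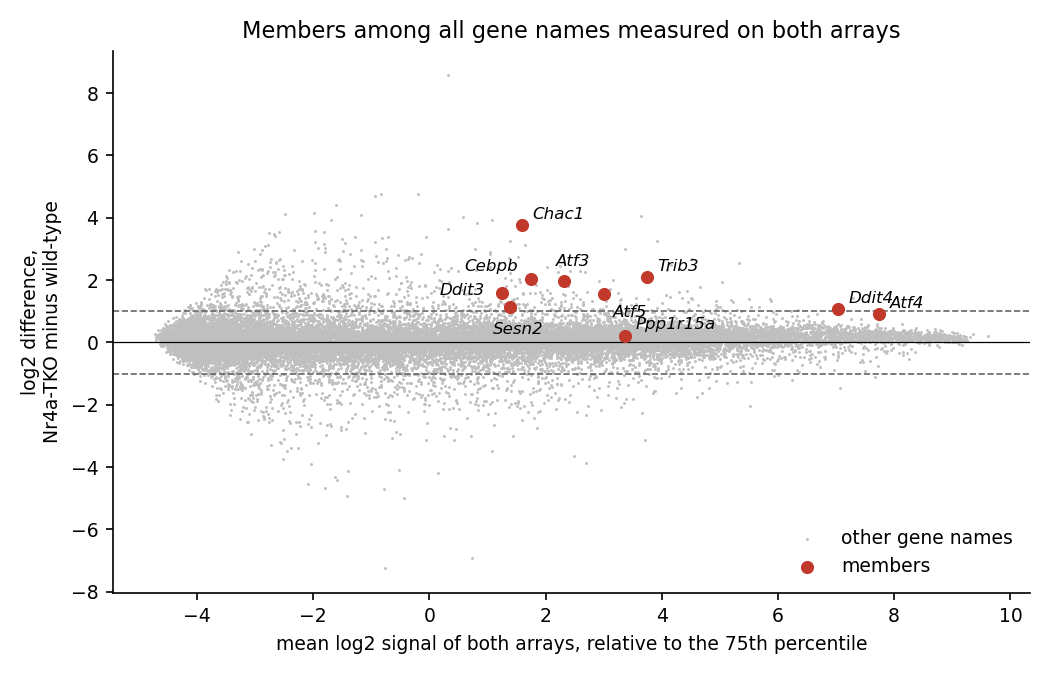
Each point is a gene name measured on both arrays, with its mean log2 signal relative to the 75th percentile of the array on the x axis and its log2 difference, Nr4a-TKO minus wild-type, on the y axis. Red points are the 10 genes, dashed lines mark 2-fold, and 8 of the red points lie above the upper line.

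Signals are given first as the scanner's processed intensities, which are not scaled between arrays. Fold differences are taken after each array was set to its 75th percentile on the log2 scale, which raised every log2 difference by 0.14. The scanner software's own error estimate for the spots of these genes gives 0.20 for a log2 difference. It is a model of technical error and holds no variation between mice. Over 262 probes with at least 5 spots, the median SD between spots gave 0.080 for a log2 difference. The spread between probes of the same gene was wider. Over 6748 genes with several probes measured on both arrays, the gap between their log2 differences had a median of 0.25. The 95th percentile of this gap was 1.16. For 9 genes of the set, which had 1 probe, no such gap could be taken.

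Some facts of the whole arrays stand beside every value below. Nr4a3 was lower by 7.04-fold in the array labelled Nr4a-TKO (3.26-fold with normexp background correction), while Nr4a1 differed by 0.06 on the log2 scale, turning in 4 of 11 alternatives, and Nr4a2 was higher by 2.54-fold, so the genotype stands as a label and each direction is drawn from it. Xist, transcribed from the inactive X chromosome of female cells, was at least 106-fold higher in the array labelled Nr4a-TKO and the Y-linked Ddx3y was lower by 3.63-fold. Y-linked Ddx3y, Eif2s3y (1.97-fold lower) and Uty (1.52-fold lower at its brighter probe) were nevertheless well above background in that array too. The other measured Uty probe had a log2 difference of -1.44. Y-linked Kdm5d, measured in the wild-type array alone, was at least 1.78-fold lower. These values do not settle the sex of the mice behind the array labelled Nr4a-TKO, and a difference in sex and the genotype cannot be told apart. All 8 Treg markers were measured on both arrays, but Foxp3, the transcription factor that defines these cells, was lower by 17.2-fold (log2 signal -2.57 in Nr4a-TKO and 1.54 in wild-type), or 10.3-fold with normexp.

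Atf4 had 2 probes. The probe that starts at base 1655 of the transcript, on chromosome 15 at 80087902 to 80087961 of build mm9, gave 221390 in the array labelled Nr4a-TKO and 130150 in the wild-type array. The probe that starts at base 504, on chromosome 15 at 80086639 to 80086698, gave 7619 in Nr4a-TKO and 4457 in wild-type. Both were higher in the array labelled Nr4a-TKO, by 1.88-fold and 1.89-fold, and the gap between their log2 differences was 0.0072. Atf4 was thus just under 2-fold at both probes. ATF4 protein, which is set largely by translation, was not measured.

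Ddit3 encodes CHOP, a C/EBP-family factor that ATF4 induces and that is tied to cell death in lasting stress. Its probe gave 3101 in the array labelled Nr4a-TKO and 1149 in the wild-type array, a difference of 2.98-fold (log2 1.58 ± 0.20, scanner error). The probe matches chromosome 10 between 126732518 and 126732821, a span of 304 bases for a probe of 60, so its match is split. Atf3, a stress-induced factor that can dampen ATF4 target genes, gave 7472 in Nr4a-TKO and 2096 in wild-type, or 3.94-fold, at 192994547 to 192994606 on chromosome 1. Both CHOP and ATF3 transcripts were further apart between the arrays than Atf4 itself.

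Atf5, whose messenger RNA is translated under eIF2 phosphorylation in the same manner as that of Atf4, gave 10392 in the array labelled Nr4a-TKO and 3913 in the wild-type array. The difference was 2.93-fold (log2 1.55 ± 0.20), at 52067627 to 52067686 on chromosome 7. Cebpb encodes a C/EBP partner of ATF4 that also serves inflammatory gene programs. It gave 5115 in Nr4a-TKO and 1394 in wild-type, or 4.05-fold, at 167515828 to 167515887 on chromosome 2. The transcription factor genes of the set thus lay between 1.88-fold and 4.05-fold, all higher in the array labelled Nr4a-TKO.

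Among the feedback genes, Trib3, the pseudokinase gene whose product binds ATF4 and holds it back, gave 20826 in the array labelled Nr4a-TKO and 5365 in the wild-type array. That is 4.29-fold (log2 2.10 ± 0.20), at 152163161 to 152163220 on chromosome 2. Ppp1r15a, the other gene of negative feedback, gave 8380 in Nr4a-TKO and 7955 in wild-type, at 52778320 to 52778379 on chromosome 7. Its log2 difference of 0.22 was about the size of the scanner error of 0.20, and it turned to -0.014 with the spike-in controls as the centre. Of the feedback pair, Trib3 was past 2-fold and Ppp1r15a was not.

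Chac1 gave 8342 in the array labelled Nr4a-TKO and 678 in the wild-type array, at 119179990 to 119180049 on chromosome 2. Its 13.6-fold difference (log2 3.76 ± 0.20) was the only one of the 10 above 5-fold.

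Ddit4 and Sesn2 encode brakes on the growth kinase complex mTORC1: REDD1 acts through the TSC complex, and Sestrin 2 binds leucine and the GATOR2 complex. Ddit4 gave 142518 in the array labelled Nr4a-TKO and 74729.9 in the wild-type array, or 2.11-fold, at 59412486 to 59412545 on chromosome 10. Sesn2 gave 2915 in Nr4a-TKO and 1469 in wild-type, or 2.19-fold, at 132048858 to 132048917 on chromosome 4. These 2 were the genes just inside 2-fold, and Atf4 at 1.88-fold was the nearest outside it. Over 11 alternatives of background correction, scaling, probe summary and filter, Ddit4 stayed at least 2-fold in 7 and Sesn2 in 10, and Atf4 reached it in 0.

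**Figure D2:**
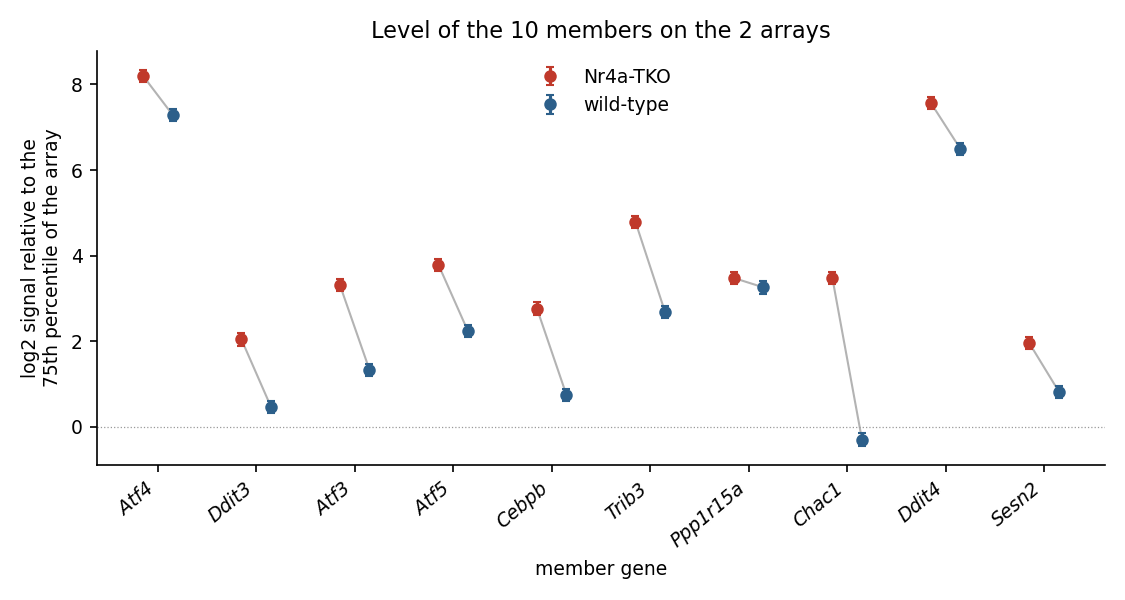
Log2 signal relative to the 75th percentile of the array (y axis) for each of the 10 genes (x axis), with the array labelled Nr4a-TKO in red to the left of the wild-type array in blue. Bars are the scanner's error for 1 spot, and every red point lies above its blue partner in this scaling, by least in Ppp1r15a and by most in Chac1. Atf4 is drawn from its brighter probe, and levels of different genes come from different probes and are not comparable.

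**Figure D3:**
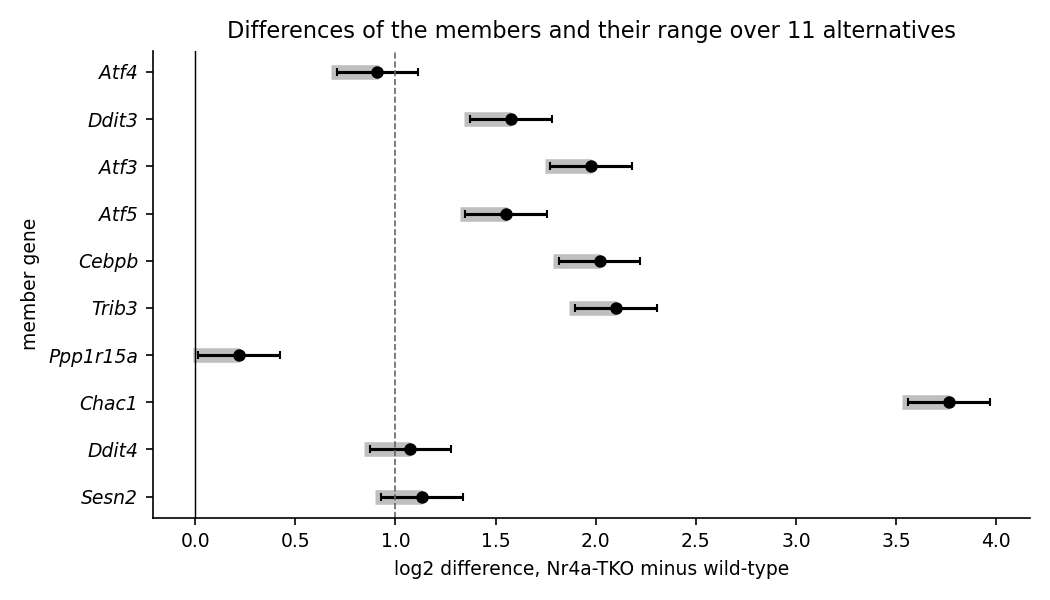
Log2 difference, Nr4a-TKO minus wild-type (x axis), for each of the 10 genes (y axis). Points carry the scanner's error, grey bands span the 11 alternatives and the dashed line marks 2-fold, which the bands of Ddit4 and Sesn2 cross and which that of Atf4 does not reach.

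The promoters of the 10 genes were read from RefSeq on GRCm38.p6 as the 250 bases before each annotated start, since genes that share a factor can share its site. All 10 genes matched, with 11 promoters because Atf5 has 2. The motifs were searched on both strands: the ATF4 and C/EBP composite element TGATGNAA, the cAMP response element TGACGTCA, the endoplasmic reticulum stress element and the NBRE AAAGGTCA, which Nr4a receptors bind as monomers. The composite element lay in the promoters of Chac1 and Atf3, against 3.45% of all 32851 promoters in the table. The cAMP response element lay in that of Ppp1r15a, against 1.55% of all. The endoplasmic reticulum stress element (0.113% of all) and the NBRE (1.34% of all) were in 0 of the 11. The 3 promoters that hold a match are shown 5′ to 3′ on the gene's strand, ending at the base before the start, with the matches in capitals. A match is a description of letters and not a site shown to be bound, and sites outside these windows were not searched.
Chac1, plus strand, chr2:119350992-119351241: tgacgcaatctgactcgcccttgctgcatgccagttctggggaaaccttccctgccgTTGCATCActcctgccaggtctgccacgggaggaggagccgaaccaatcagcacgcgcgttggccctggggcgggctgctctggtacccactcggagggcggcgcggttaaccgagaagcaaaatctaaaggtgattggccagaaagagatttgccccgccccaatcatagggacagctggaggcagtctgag
Atf3, minus strand, chr1:191183334-191183583: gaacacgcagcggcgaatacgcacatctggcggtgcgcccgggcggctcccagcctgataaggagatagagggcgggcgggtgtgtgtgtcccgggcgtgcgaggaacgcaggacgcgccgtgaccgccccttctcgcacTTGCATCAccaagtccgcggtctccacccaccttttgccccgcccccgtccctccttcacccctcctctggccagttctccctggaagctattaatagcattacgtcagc
Ppp1r15a, minus strand, chr7:45526269-45526518: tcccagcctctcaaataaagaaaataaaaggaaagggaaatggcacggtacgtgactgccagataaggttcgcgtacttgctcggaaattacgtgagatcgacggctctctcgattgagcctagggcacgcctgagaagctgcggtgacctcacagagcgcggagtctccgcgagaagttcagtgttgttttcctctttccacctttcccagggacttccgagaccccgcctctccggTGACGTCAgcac
Counted from the start, the capitals lie at -193 to -186 in Chac1 and at -110 to -103 in Atf3, both matching the reverse complement TTNCATCA with the same 8 letters. In Ppp1r15a they lie at -12 to -5. The remaining 7 genes, of which Trib3 and Cebpb differed by over 4-fold, held no match in these windows.

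Relatives of the 10 genes were taken from a list of 17 family members. Of the 14 measured, 0 reached 2-fold upward and 2 did so downward, beside 3.15% and 3.06% of all names. By any amount 8 were higher, beside 59.6% of all names. The upward count and the count higher by any amount are near the shares of all names, and nothing is read from them. The median of the 14 was 0.05 and turned below 0 in 4 of 11 alternatives. The 2 lower genes were the other Tribbles pseudokinases, which steer C/EBP proteins to degradation. Trib1 had a log2 signal of 1.32 in Nr4a-TKO and 2.78 in wild-type, or 2.75-fold lower, and Trib2 had 1.90 in Nr4a-TKO and 3.22 in wild-type, or 2.49-fold lower. Both stayed past 2-fold in all 11 alternatives. Within the family, Trib3 was thus higher while Trib1 and Trib2 were lower.

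The other sestrin genes, which p53 and FOXO factors are known to induce, had log2 differences of -0.43 (Sesn1) and -0.29 (Sesn3), against 1.13 for Sesn2. Chac2, the constitutive relative of Chac1, differed by 0.21, and Ppp1r15b, the constitutive relative of Ppp1r15a, also by 0.21. Both turned in direction with spike-ins as the centre. Among C/EBP genes Cebpd was at 0.82 and Cebpg, a dimer partner of ATF4, at 0.31. Neither array showed Cebpa well above background, and Cebpe, measured in the wild-type array alone, was at least 1.14-fold lower. Among ATF and CREB genes Atf6b was at -0.13 and Atf7 at -0.36. Atf1 was at 0.25, Atf6 at 0.13, Creb1 at 0.10 and Atf2 at 0.01, and each of these 4 turned in direction in at least 1 alternative. Probes of the same gene also differed. The lowest of 3 Atf1 probes gave -0.78, the lower of 2 Creb1 probes -0.79 and the lowest of 4 Atf2 probes -0.32. Ddit4l, the paralogue of Ddit4, was likewise not well above background.

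**Figure D4:**
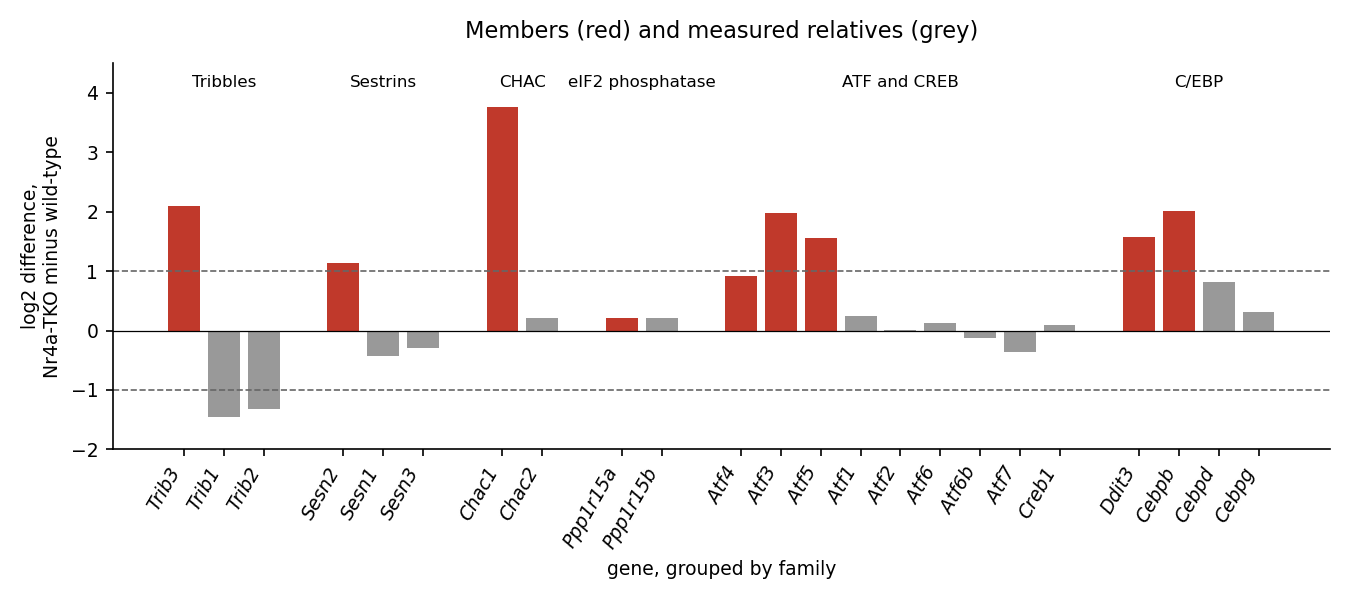
Bars give the log2 difference, Nr4a-TKO minus wild-type (y axis), for the genes of the set (red) and their relatives measured on both arrays (grey), grouped by family on the x axis. Dashed lines mark 2-fold. Trib3 stands above the upper line and Trib1 and Trib2 below the lower, and Chac1 and Sesn2 stand above their grey relatives.

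Upstream of ATF4, 0 of 6 genes of the eIF2 kinases and their regulators reached 2-fold. Of all names 3.15% did so upward and 3.06% downward, so this count is near that of all names. Eif2ak4, which encodes the amino acid sensor GCN2, was at -0.10 at the brightest of its 3 probes, the lowest of which gave -0.60. Eif2ak3 (PERK, the endoplasmic reticulum sensor) was at 0.28, Eif2ak2 (PKR, the RNA sensor) at 0.34 and Eif2ak1 (HRI, the haem sensor) at -0.10. Gcn1 and Impact, which promote and restrain GCN2, were both at 0.14, and each turned with spike-ins as the centre. Of 12 genes of eIF2, eIF2B and the eIF2 phosphatase, 0 reached 2-fold, with Eif2s2 furthest at 0.59 and a median of 0.24 (0.01 with spike-ins as the centre). That count is also near the share of all names. Transcript levels do not report the phosphorylation by which these proteins act.

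Other known ATF4 target genes were set beside the 10. Of 45 on the list 42 were measured, with a median of 0.82, or 0.59 with spike-ins as the centre. Of these 15 were past 2-fold upward, 0 downward and 27 between, beside 3.15% of all names upward and 3.06% downward. By any amount 39 were higher, beside 59.6% of all names, and Slc1a5 at -0.53, Map1lc3b at -0.29 and Gadd45a at -0.21 were lower. Gdf15, measured in the array labelled Nr4a-TKO alone, was at least 2.18-fold higher, and Slc7a11 and Fgf21 were not well above background. Over the 11 alternatives the higher count ran between 12 and 17 and the lower stayed at 0. The 17 came with dim probes kept, where 45 genes were counted in place of 42. Asns, which makes asparagine, had a log2 signal of 5.68 in Nr4a-TKO and 1.62 in wild-type, or 16.7-fold. Slc7a3, a carrier of cationic amino acids, had 2.60 in Nr4a-TKO and -1.42 in wild-type, or 16.2-fold (13.4-fold with normexp). Cth, which makes cysteine from cystathionine, had 0.97 in Nr4a-TKO and -2.41 in wild-type, or 10.4-fold (7.31-fold with normexp). Nupr1, a stress-induced chromatin-associated protein gene, had 0.86 in Nr4a-TKO and -2.50 in wild-type, or 10.3-fold (7.19-fold with normexp). The list was drawn up with results of some of these genes known and is no independent evidence of its direction.

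The XBP1 and ATF6 arms of the unfolded protein response raise chaperones and folding enzymes. Of 24 such genes, all measured, 0 were past 2-fold in either direction, beside 3.15% of all names higher and 3.06% lower, so the count is near that of all names. Their median was 0.13, beside 0.08 over all names, and -0.10 with spike-ins as the centre. The furthest were Sdf2l1 at 0.54, Dnajb9 at -0.41, Canx at 0.39 and Hsp90b1 at 0.38. Of 5 CHOP target and death genes, Ero1a (listed as Ero1l), an oxidase of the endoplasmic reticulum, was higher by 2.71-fold, and Pmaip1, Tnfrsf10b and Bcl2l11 were at 0.35, 0.32 and -0.29. All 9 mitochondrial chaperone and protease genes were higher by any amount, beside 59.6% of all names, with 0 past 2-fold. Their median was 0.49, or 0.26 with spike-ins as the centre, where Clpp and Oma1 turned to -0.085 and -0.040. Lonp1 led the 9 at 0.71, with Trap1 at 0.66, Hspe1 at 0.52 and Clpx at 0.50.

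Several of the 10 genes have other known inducers, and lists for these were set beside them. Hypoxia genes, which share with Ddit4 the factor HIF-1, had 3 of 11 past 2-fold upward and 0 downward. The shares of all names were 3.15% and 3.06%. The median of the hypoxia genes was 0.65, or 0.42 with spike-ins as the centre. Egln3 was higher by 5.61-fold, Adm by 4.21-fold (3.35-fold with normexp) and Vegfa, which is also on the ATF4 list, by 2.67-fold. Ndrg1 was at 0.96. Glucocorticoid-induced genes, another group with Ddit4, had 2 of 6 higher by any amount, beside 59.6% of all names, with a median of -0.18. Sgk1 was past 2-fold at 2.92-fold higher and Klf9 was at 0.27, while Dusp1 was at -0.97 (past 2-fold in 4 of 11 alternatives) and Tsc22d3 at -0.63. The factor p53 is another known inducer of Sesn2. Of 14 measured p53 target genes 10 were higher by any amount, beside 59.6% of all names. Upward past 2-fold was 1, Cdkn1a at 2.51-fold higher, beside 3.15% of all names. Trp53inp1 was at -0.94 (past 2-fold in 4 of 11 alternatives), Perp at 0.58 and Sesn1 as above.

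Immediate-early genes of receptor signalling, a group in which Atf3 and Ppp1r15a are often counted, had 3 of 21 past 2-fold upward and 1 downward. The shares of all names were 3.15% and 3.06%. The median of the immediate-early genes was -0.01. Ier3 was higher by 5.05-fold, Fosl1 by 2.64-fold and Fosl2 by 2.54-fold, and Dusp5 was lower by 3.98-fold. Of 17 genes of mTORC1 and its nutrient sensors, on which REDD1 and Sestrin 2 act, 0 reached 2-fold, a count near the share of all names. Their median was 0.13, or -0.10 with spike-ins as the centre. Wdr59, a GATOR2 subunit gene, was furthest at 0.66, with Seh1l at 0.38, Rraga at 0.36 and Tsc1 at -0.31. The 14 housekeeping genes had 0 past 2-fold, also near the share of all names, and a median of 0.13, which was -0.10 with spike-ins as the centre.

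**Figure D5:**
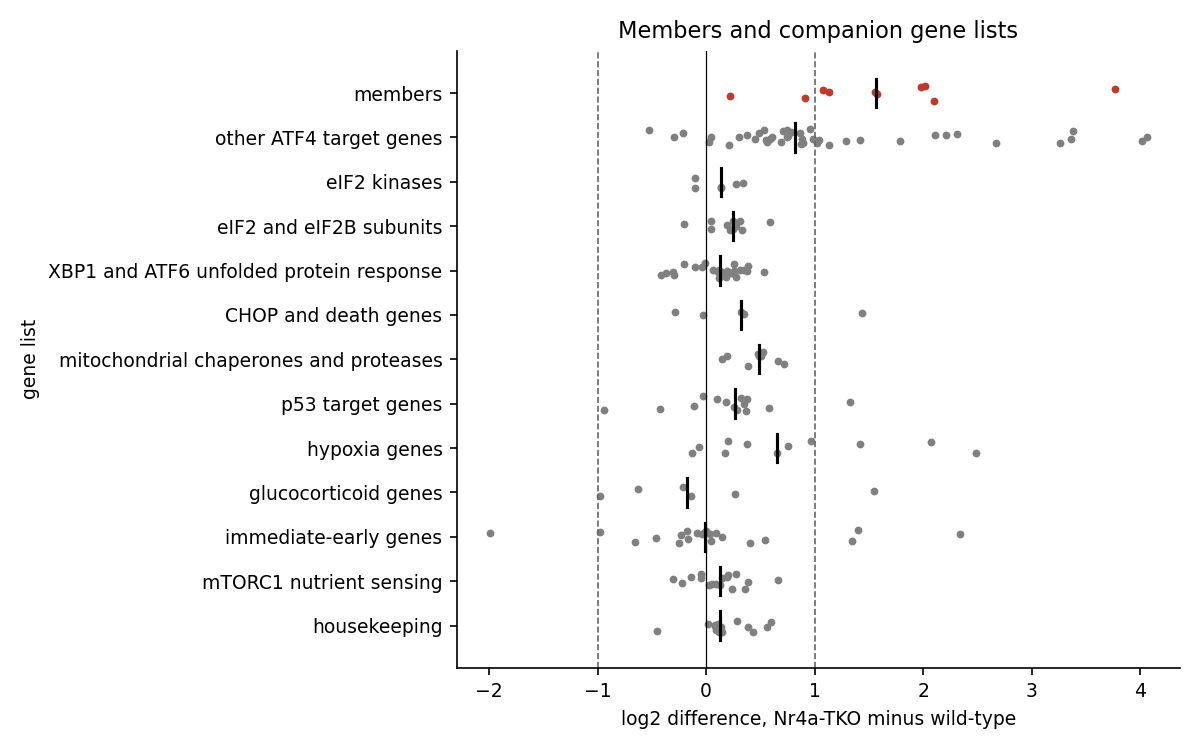
Log2 difference, Nr4a-TKO minus wild-type (x axis), of each gene measured on both arrays in the set (red) and in 12 companion lists (grey), 1 list per row. Black bars are medians and dashed lines mark 2-fold. The set and the other ATF4 target genes have the medians furthest to the right, 1.56 and 0.82. Several lists, among them the unfolded protein response list and the housekeeping genes, lie wholly between the dashed lines.

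Markers of the labelled cells and of other cells were set beside these values, and in bulk RNA fewer cells of a type and less RNA per cell cannot be told apart. The summed signal of the 8 Treg markers, in multiples of the 75th percentile of the array, was 541 in Nr4a-TKO and 732 in wild-type, with Ctla4 and Ikzf2 lower by 2.29-fold and 3.07-fold and Nrp1 higher by 3.23-fold (2.61-fold with normexp). For 7 T cell markers it was 701 in Nr4a-TKO and 737 in wild-type. Of these 7, 2 were higher by any amount, beside 59.6% of all names, and their median log2 difference was -0.39. Cd28 was at -0.56, Cd3d at -0.52, Cd4 at -0.52 and Cd3g at -0.39. For the B cell list the summed signal was 1.33 in Nr4a-TKO and 0.691 in wild-type, and Ms4a1 and Ebf1 were not well above background on either. For macrophages and dendritic cells the summed signal was 13.7 in Nr4a-TKO and 13.9 in wild-type with 5 of 8 measured. For CD8 and NK cells it was 3.91 in Nr4a-TKO and 6.16 in wild-type with 5 of 7 measured. Of these 5, 1 was higher by any amount, beside 59.6% of all names. Nkg7 was at -0.78 at its brighter probe and -2.62 at the other, and Cd8b1 was at -0.64. Klrd1, measured in the wild-type array alone, was at least 5.97-fold lower. For granulocytes and mast cells, with 4 of 8 measured, the summed signal was 3.11 in Nr4a-TKO and 2.18 in wild-type. Ly6g alone was past 2-fold upward, at 6.72-fold (5.30-fold with normexp). Mpo and Kit were lower by 7.76-fold and 5.40-fold (3.04-fold and 2.73-fold with normexp). S100a8 and S100a9, measured in the wild-type array alone, were at least 2.50-fold and 2.89-fold lower. For the plasma cell list it was 53.2 in Nr4a-TKO and 65.3 in wild-type, nearly all of it Xbp1 (log2 signal 5.72 in Nr4a-TKO and 6.02 in wild-type), which also serves the unfolded protein response. Of the other plasma cell markers Sdc1 was higher by 3.17-fold (2.01-fold with normexp). Mzb1 was at 0.16 (turning with spike-ins as the centre) and Prdm1 at -0.72, and Jchain was not well above background. The sum was, for the erythroid list, 0.173 in Nr4a-TKO and 0.143 in wild-type, and for the epithelial and stromal list 0.721 in Nr4a-TKO and 0.486 in wild-type. On the latter list Krt18 was higher by 2.43-fold (1.91-fold with normexp), while Col1a2 was at -0.19 and Epcam at -0.18. Col1a1, measured in the array labelled Nr4a-TKO alone, was at least 2.16-fold higher. The part of these cells in the differences of the ATF4 pathway genes was not tested.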

How the data were processed

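The Cy3-labelled Agilent arrays, 1 per genotype label, were used. Spot intensity values were produced by the authors with Feature Extraction 10.10.1.1 (Agilent), per the file headers, and probe coordinates are those of build mm9. A deposited table of log2 values differed from log2 of the processed signal by 1 constant for each array (SD of the remainder 0.00029), with medians of -3.53 for Nr4a-TKO and -3.54 for wild-type; the labels do not say how that constant was chosen. Control spots and outlier-flagged spots (117 in Nr4a-TKO, 156 in wild-type) were left out, log2 signals were averaged per probe and the 75th percentile over 55676 probes was subtracted. Accessions gave 27508 probes a RefSeq symbol, and the others kept the file's name. A gene was represented by its brightest probe and counted if the scanner software called it well above background for each array. Where it was so on 1 array only, and no probe of the gene on the other, a lower bound was given, set against the higher of the dim probe's own signal and the lowest signal above background there. Saturated spots numbered 0. Both arrays shared 1 slide and 1 scan. With 1 array per genotype no test was possible, and precision is limited by their number.

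The 10 genes, the companion lists and the 2-fold size were chosen with earlier results of these data known. Named genes were the 10, the eIF2 kinases, the relatives, the label checks and up to 4 of the largest differences in each other list. Genes outside this rule (Gdf15, Slc7a11, Fgf21, Slc1a5, Map1lc3b, Gadd45a, Clpp, Oma1, S100a8, S100a9, Jchain, Ms4a1 and Ebf1) were chosen after their values were seen. Alternatives are given in the closing part. Counting was tested on simulated data. Python 3.11.15, numpy 2.4.6, pandas 2.3.3, matplotlib 3.10.9, R 4.3.3 and limma 3.58.1 were used.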

Additional observations from a re-analysis of the deposited data

How the results depend on the processing

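No paired analysis was possible because each genotype has 1 array. The 8 higher genes of the set became 7 with quantile normalization, loess or housekeeping genes as the centre, 6 with spike-ins as the centre, 9 at 1.5-fold and 4 at 3-fold, and 0 were lower in each of the 13 alternatives. Their median of 1.56 became 1.33 with spike-ins and 1.44 with housekeeping genes as the centre. These centrings shift every gene alike, the median of all genes by -0.23 and -0.13, and the set's median minus that of all genes was 1.48 in each. Of 110 single values 79 moved by less than the spot SD of a difference, 30 by more in the same direction, and Ppp1r15a turned to -0.014 with spike-ins. Over all names the 741 higher and 720 lower became 478 and 457 with normexp background correction (offset 50), 477 and 1151 with spike-ins, 1988 and 1834 with dim probes kept, 1965 and 1728 at a size of 1.5-fold, and 288 and 283 at one of 3-fold. The higher share of these was 50.7% in the main setting, 29.3% with spike-ins and 39.4% with housekeeping genes. Keeping dim probes adds names and another size redraws the line; for normexp the cause was not tested.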
